A study of Homo sapiens with 6 samples.

Results

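The 10 genes described here encode subunits of NuRD, the nucleosome remodelling and deacetylase complex: CHD3, CHD4, HDAC1, HDAC2, MTA1, MTA2, MTA3, MBD2, MBD3 and RBBP4. They were chosen by name, because NuRD is a corepressor complex of OCT1. The rule did not use their values, though earlier results of these data were known when it was made. All 10 were found among 20474 annotated genes, and all 10 passed the filter that left 11831 genes to test. The libraries came from HCT116, a human colorectal cancer cell line, as polyA RNA taken 48 h after transfection. The 3 sicontrol libraries received the control siRNA and carry the genotype label WT, and the 3 siPOU2F1 libraries received an siRNA against POU2F1, the gene of the transcription factor OCT1, and are labelled as its knockdown. Nothing in the labels ties a library to a culture of its own, so a p-value here reflects only how far these libraries vary, which may be technical variation. The sequence of neither siRNA is given in the sources used here, and all libraries are of 1 cell line.

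NuRD joins a motor and a deacetylase in 1 assembly: it slides nucleosomes with an ATP-driven motor and removes acetyl groups from histone tails. CHD3 and CHD4 are alternative motors, HDAC1 and HDAC2 are the deacetylases, and the MTA proteins are scaffolds that bind and activate the deacetylases. MBD2 brings the complex to methylated CpG sites, MBD3 takes its place in a separate form of the complex, and RBBP4 and RBBP7 are histone-binding proteins shared with other chromatin complexes. Paralogues therefore compete for the same places in NuRD, which is why their ratios are given below beside their levels.

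The promoters of 3 members are shown first. HDAC1 is the member whose change passed the test, and HDAC2 is its paralogue. MTA2 is the member with a promoter window that held the octamer, the DNA element that OCT1 binds. The windows are from RefSeq on GRCh38.p14, read 5′ to 3′ on the gene's strand, from 250 bases before the start to 50 bases after it. Capitals mark the octamer ATGCAAAT, the CCAAT box CCAAT and the GC box GGGCGG, each on either strand (ATTTGCAT, ATTGG and CCGCCC when reversed). The letters of these motifs were matched exactly, and 2 of the GC boxes of HDAC1 overlap each other.

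HDAC1, chr1:32291833-32292132, plus strand: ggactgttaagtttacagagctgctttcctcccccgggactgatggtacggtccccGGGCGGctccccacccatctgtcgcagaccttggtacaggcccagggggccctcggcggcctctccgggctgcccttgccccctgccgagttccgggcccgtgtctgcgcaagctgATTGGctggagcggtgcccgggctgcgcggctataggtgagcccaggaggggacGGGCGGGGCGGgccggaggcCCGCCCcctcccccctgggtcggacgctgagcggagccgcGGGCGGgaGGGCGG
HDAC2, chr6:113971099-113971398, minus strand: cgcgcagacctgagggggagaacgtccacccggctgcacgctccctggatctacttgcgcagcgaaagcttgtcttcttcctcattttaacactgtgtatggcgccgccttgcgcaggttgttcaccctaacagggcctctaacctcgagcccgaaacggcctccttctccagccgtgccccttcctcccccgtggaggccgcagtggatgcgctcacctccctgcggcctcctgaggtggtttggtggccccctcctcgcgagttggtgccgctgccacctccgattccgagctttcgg
MTA2, chr11:62601816-62602115, minus strand: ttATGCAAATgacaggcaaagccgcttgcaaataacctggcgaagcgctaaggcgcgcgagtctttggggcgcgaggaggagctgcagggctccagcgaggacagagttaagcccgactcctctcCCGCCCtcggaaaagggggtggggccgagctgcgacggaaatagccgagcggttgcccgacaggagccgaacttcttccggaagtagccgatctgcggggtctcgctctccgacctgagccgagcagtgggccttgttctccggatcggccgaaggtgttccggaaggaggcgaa

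The 10 members had 13 such windows in the table, and MTA2 was the 1 member with an octamer. The other MTA2 window, chr11:62601201-62601500, held 0 octamers and is not shown. The octamer starts 248 bases before the RefSeq start of the window shown, at chr11:62602106-62602113, where 0 annotated genes lie. The nearest coding genes in GENCODE release 29 are EML3, whose annotated end is 105 bases away, and MTA2 itself, 266 bases away. Of all 35116 promoter windows of this length, 1.77% hold an octamer, and 2.19% of the 27305 genes have it in at least 1 window. A GC box was present for 8 of the 10 members, against 48.3% of genes and 45% of windows. A CCAAT box was present for 3 of the 10, against 39.7% of genes and 34.6% of windows. The HDAC1 window held 6 GC boxes and 1 CCAAT box, whereas the HDAC2 window held 0 of any of the 3 motifs. These matches describe letters, not bound sites, and binding was not measured.

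POU2F1 itself, which checks the labels, measured 4.16, 3.60 and 4.26 FPKM in sicontrol and 1.87, 1.69 and 1.73 FPKM in siPOU2F1. The values of each gene are always listed in the order of replicates 1, 2 and 3. FPKM scales fragments to the length of the transcript and to the library's total, so levels of different genes can be set side by side. The log2 fold change of POU2F1 was -0.99 (SE 0.14; limma adjusted p = 0.0333), and every fold change below is siPOU2F1 minus sicontrol on the log2(FPKM + 0.5) scale. Read depth could be estimated only roughly and in relative terms, from 0.78 to 1.00 of sicontrol replicate 1. Mitochondrially encoded genes took between 5.97% and 8.32% of the FPKM sum. The library siPOU2F1 replicate 3 stands apart from its group: across tested genes its log2 values correlated at r = 0.977 with sicontrol replicate 2, against 0.946 and 0.948 with siPOU2F1 replicates 1 and 2. Genes are not independent replicates, so this is a description. Calls of members and related genes that turn on that library are given with and without it. With it 1.24% of all tested genes were called, and without it 25.3% (limma), so each such pass is to be read against that share. Epithelial marker genes were present, with EPCAM at 204 to 223 FPKM and LGALS4 near 0 in every library. The 8 markers together summed to between 2705 and 3628 FPKM in sicontrol and between 3740 and 5166 FPKM in siPOU2F1, mostly KRT8 and KRT18 (keratins), and 0 of the 7 tested were called (limma; 2 higher at an unadjusted p under 0.05). With siPOU2F1 replicate 3 left out, KRT8, KRT18 and VIL1 were called higher (log2 fold changes 1.23, 0.65 and 1.33; limma adjusted p = 0.0147, 0.0138 and 0.0356), and so was the fibroblast marker COL1A1 (0.60, limma adjusted p = 0.0362). Fibroblast, leukocyte and endothelial lists summed to at most 3.69, 7.80 and 0.954 FPKM in any library, with COL3A1, DCN and PTPRC listed at 0 throughout. The part of this marker difference in the results below was not tested.

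In sicontrol cells the NuRD subunits differed widely in level. CHD4 was the most abundant member (73.2 ± 3.65 FPKM; SD, n = 3 here and for each mean below), followed by MTA2 (47.5 ± 8.29), HDAC2 (40.5 ± 17.1), HDAC1 (30.5 ± 3.22), MTA1 (26.5 ± 1.70), RBBP4 (23.6 ± 5.95) and MBD3 (21.6 ± 3.24). CHD3 (14.7 ± 0.552), MTA3 (11.4 ± 1.24) and MBD2 (7.97 ± 0.438) were the lowest. From MTA2 down to MBD3, each gene's range of values overlapped that of its neighbour in this order, so those neighbours were not separated. CHD4 lay above MTA2 in every sicontrol library, and CHD3, MTA3 and MBD2 lay in that order without overlap. RBBP7, a subunit outside the 10, was higher than all of them at 152.7 ± 9.13 FPKM.

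After POU2F1 knockdown 1 NuRD member passed the test, and it rose: HDAC1. By the same test 0 members were lower. Over all tested genes 1.24% were called (0.397% higher and 0.845% lower), so 1 of 10 is a single gene to be read against that background. At an unadjusted p under 0.05 there were 4 members, HDAC1, MTA1, CHD4 and HDAC2, where 18.1% of all tested genes reached it. The groups did not overlap for 3 members, HDAC1 and MTA1 above the controls and CHD4 below them, against 23.4% of all tested genes. The median log2 fold change of the members was -0.06, with 5 positive and 5 negative, and that of all tested genes was -0.01. The members thus lay on both sides of 0. In bulk RNA, fewer cells with a transcript and less of it per cell cannot be told apart, and this holds for each gene below.

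**Figure D1:**
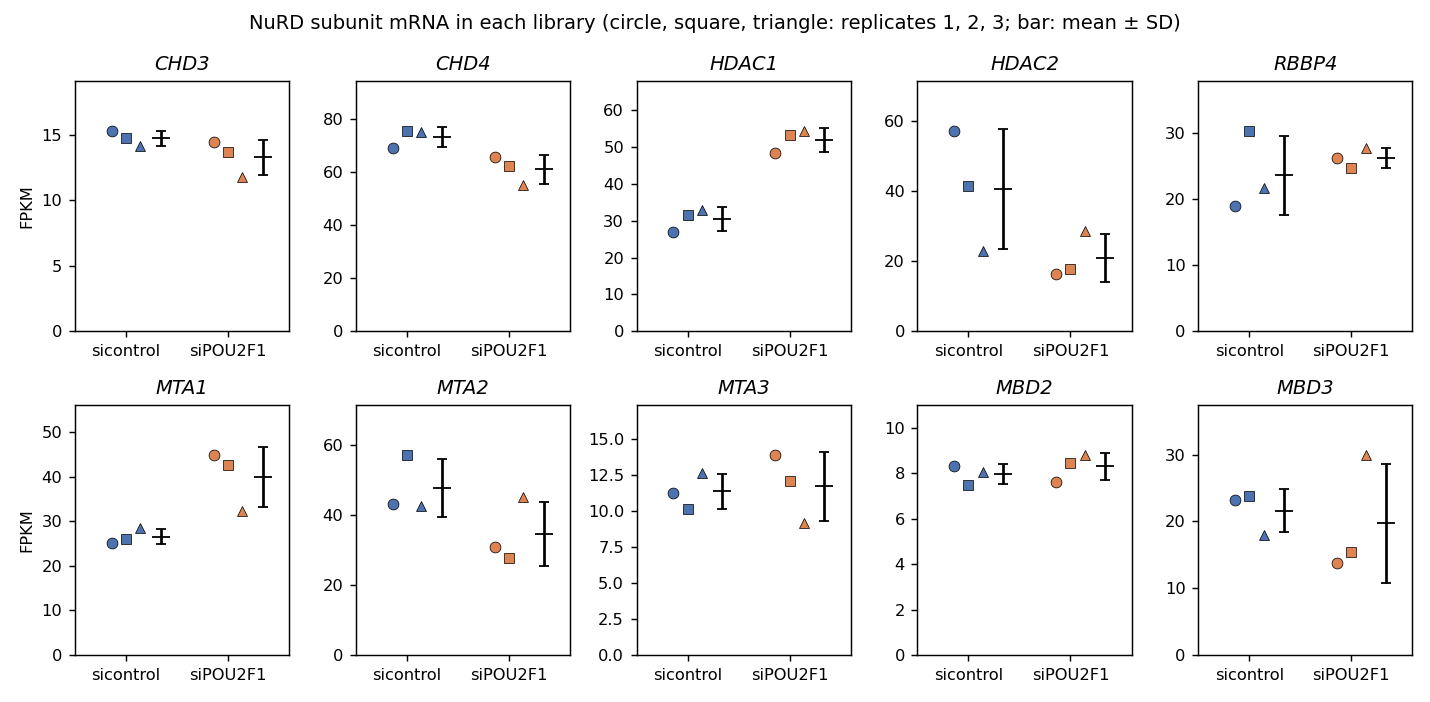
FPKM of the 10 NuRD genes in each library, with 1 panel per gene, the y axis from 0, circles, squares and triangles for replicates 1, 2 and 3, and bars for the mean ± SD of 3 libraries. HDAC1 and MTA1 lie higher in all 3 siPOU2F1 libraries than in any sicontrol library, CHD4 lies lower, and the other 7 genes overlap between groups.

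HDAC1 (ENSG00000116478; chromosome 1, 32292086 to 32333635, plus strand, GRCh38) is a class I histone deacetylase and a catalytic subunit of NuRD, SIN3 and CoREST complexes. It measured 26.9, 31.6 and 33.1 FPKM in sicontrol. In siPOU2F1 it measured 48.3, 53.2 and 54.4 FPKM. Every siPOU2F1 library was above every sicontrol library. The highest was siPOU2F1 replicate 3, which across tested genes correlated more closely with each control than with its own group. The mean went from 30.5 ± 3.22 to 52.0 ± 3.22 FPKM, which is 170% of the control mean. The log2 fold change was 0.76 (SE 0.12, 95% interval 0.49 to 1.03; limma adjusted p = 0.0361). Without siPOU2F1 replicate 3 it was 0.73 (limma adjusted p = 0.0115). The call was lost when any 1 of the other 5 libraries was left out, with log2 fold changes from 0.67 to 0.82. The limma adjusted p was then 0.198, 0.142 and 0.0968 without sicontrol replicates 1, 2 and 3, and 0.154 and 0.191 without siPOU2F1 replicates 1 and 2. It was also lost without a filter on low values (limma adjusted p = 0.0547). GENCODE names 2 pseudogenes of HDAC1, so its values are uncertain as far as the authors' counting split reads with them.

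HDAC2 (ENSG00000196591; chromosome 6, 113933028 to 114011308, minus strand), the paralogous deacetylase, had a lower mean in siPOU2F1 cells, with a wide spread. It measured 57.2, 41.4 and 22.9 FPKM in sicontrol. In siPOU2F1 it measured 16.4, 17.7 and 28.7 FPKM. Replicates 1 and 2 of siPOU2F1 lay below all controls, but siPOU2F1 replicate 3 was above sicontrol replicate 3, so the groups overlapped. Means were 40.5 ± 17.1 and 20.9 ± 6.76 FPKM, and HDAC2 was not called (log2 fold change -0.89, SE 0.35, 95% interval -1.72 to -0.05; limma adjusted p = 0.253). Without siPOU2F1 replicate 3 the log2 fold change was -1.13 and the adjusted p was 0.0510 (limma).

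Because either deacetylase can fill the same place, their balance was compared within each library. HDAC1 made up 32.0%, 43.3% and 59.0% of the summed HDAC1 and HDAC2 FPKM in sicontrol. In siPOU2F1 replicates 1 to 3 it made up 74.7%, 75.1% and 65.5%. The mean share was 44.8% ± 13.6 in sicontrol and 71.7% ± 5.43 in siPOU2F1 cells, with every knockdown library above every control. The sum of both genes was 71.1 ± 14.2 FPKM in sicontrol and 72.9 ± 9.34 FPKM in siPOU2F1 (exact two-sided permutation test, p = 1). The mean sum in siPOU2F1 was 1.03 times that of the controls. Within sicontrol the sum ran from 56.0 to 84.1 FPKM, so with 3 libraries per group this test cannot show that the sums were equal. The log2 ratio of HDAC1 to HDAC2 was -0.31 ± 0.80 and 1.34 ± 0.37, a difference of 1.65. An exact two-sided permutation test returned p = 0.1, below which 3 libraries against 3 cannot go, and 0.3 after Benjamini-Hochberg adjustment over the 6 paralogue ratios. The difference ranged from 1.27 to 2.06 when any 1 library was left out.

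**Figure D2:**
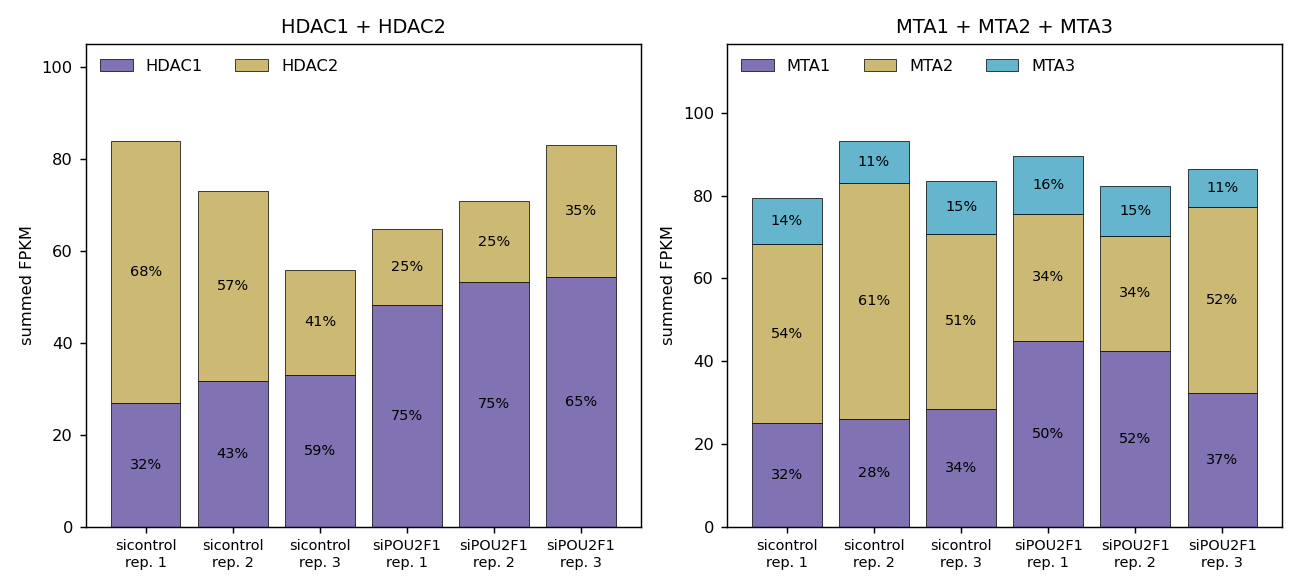
Summed FPKM of HDAC1 and HDAC2 (left) and of MTA1, MTA2 and MTA3 (right) in each library, with the bars starting at 0 and the percentage of each paralogue written in its segment. The HDAC1 segment holds 65.5% to 75.1% in siPOU2F1 and 32.0% to 59.0% in sicontrol libraries, while the bar heights of the groups overlap.

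Among the MTA scaffolds, MTA1 was higher and MTA2 lower in siPOU2F1 on average, and neither passed the test. MTA1 (ENSG00000182979; chromosome 14, 105419820 to 105470729, plus strand) measured 25.1, 26.0 and 28.4 FPKM in sicontrol. It measured 44.9, 42.6 and 32.3 FPKM in siPOU2F1. All 3 siPOU2F1 libraries were above the controls, with siPOU2F1 replicate 3 nearest to them. The log2 fold change was 0.57 (SE 0.15, 95% interval 0.22 to 0.91), and MTA1 was not called (limma adjusted p = 0.121). Without siPOU2F1 replicate 3 it was 0.71 and passed (limma adjusted p = 0.00828), as did 25.3% of all genes tested in that fit. The antisense gene AL928654.2 shares 10.5% of the exonic bases of MTA1. The library kit keeps strand, but the strand setting of the counting is not given in the sources used here, so reads of the pair may be mixed.

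MTA2 (ENSG00000149480; chromosome 11, 62593214 to 62601840, minus strand), with the octamer in the promoter window shown above, measured 43.1, 57.1 and 42.4 FPKM in sicontrol. In siPOU2F1 it measured 30.7, 27.8 and 45.0 FPKM. Again siPOU2F1 replicates 1 and 2 were below all controls, while siPOU2F1 replicate 3 lay within their range. The log2 fold change was -0.48 (SE 0.21, 95% interval -0.97 to 0.02; limma adjusted p = 0.286). Without siPOU2F1 replicate 3 it was -0.68 and passed (limma adjusted p = 0.0230), as did 25.3% of all genes tested in that fit. MTA3 (ENSG00000057935; chromosome 2, 42494569 to 42756947, plus strand), the third scaffold, ranged from 10.2 to 12.7 FPKM in sicontrol and from 9.17 to 13.9 FPKM in siPOU2F1. Its log2 fold change was 0.03 (95% interval -0.38 to 0.44; limma adjusted p = 0.936), and the sign turned when sicontrol replicate 2, siPOU2F1 replicate 1 or siPOU2F1 replicate 2 was left out (-0.04, -0.10 and -0.0024).

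Of the summed FPKM of the 3 MTA genes, MTA1 held 31.2% ± 3.09 in sicontrol and 46.4% ± 7.86 in siPOU2F1, while MTA2 held 55.4% ± 5.29 and 40.0% ± 10.4. The 3 genes together reached 85.4 ± 7.12 FPKM in sicontrol and 86.1 ± 3.55 FPKM in siPOU2F1 (exact two-sided permutation test, p = 1). In siPOU2F1 replicates 1 and 2 MTA1 exceeded MTA2, and in the other 4 libraries MTA2 exceeded MTA1. The log2 ratio of MTA1 to MTA2 was -0.82 ± 0.28 in sicontrol and 0.23 ± 0.61 in siPOU2F1, a difference of 1.04 with no overlap between groups. Its exact two-sided permutation p was 0.1, the lowest this design allows, and 0.3 after adjustment over the 6 ratios. That difference was 0.85 without siPOU2F1 replicate 2 and 1.39 without siPOU2F1 replicate 3, the extremes when 1 library was left out. The log2 ratio of MTA3 to MTA2 overlapped between groups (exact two-sided permutation test, p = 0.3, adjusted 0.6).

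CHD4 (ENSG00000111642; chromosome 12, 6570082 to 6614524, minus strand), the main remodelling motor by level, was somewhat lower in all siPOU2F1 libraries. It measured 69.0, 75.5 and 75.2 FPKM in sicontrol. It measured 65.9, 62.4 and 55.0 FPKM in siPOU2F1. Here siPOU2F1 replicate 3 was the lowest, unlike its place for MTA1, MTA2 and HDAC2, where it lay nearest to or among the controls. The siPOU2F1 mean was 83.4% of the sicontrol mean, and the log2 fold change of -0.26 (95% interval -0.51 to -0.01) was not called (limma adjusted p = 0.254). Without siPOU2F1 replicate 3 it was -0.19 (limma adjusted p = 0.163). AC006064.6, a gene model that covers 86% of the exonic bases of CHD4 on the same strand, had means of 0.462 FPKM in sicontrol and 0.00635 FPKM in siPOU2F1, and reads of the pair may be split.

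CHD3 (ENSG00000170004; chromosome 17, 7884806 to 7912760, plus strand), the alternative motor, measured 15.3, 14.7 and 14.2 FPKM in sicontrol and 14.4, 13.6 and 11.8 FPKM in siPOU2F1. Its log2 fold change was -0.15 (95% interval -0.42 to 0.13; limma adjusted p = 0.503). CHD3 held 16.8% ± 1.19 of the summed CHD3 and CHD4 FPKM in sicontrol and 17.8% ± 0.184 in siPOU2F1, so the balance of motors overlapped between groups. The log2 ratio of CHD3 to CHD4 differed by 0.11 (exact two-sided permutation test, p = 0.4, adjusted 0.6). The summed level of both motors was 88.0 ± 3.20 FPKM in sicontrol and 74.4 ± 6.88 FPKM in siPOU2F1, without overlap (exact two-sided permutation test, p = 0.1, the smallest possible).

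MBD2 (ENSG00000134046; chromosome 18, 54151601 to 54224788, minus strand), the methyl-CpG-binding subunit, varied little. It measured 8.35, 7.49 and 8.06 FPKM in sicontrol and 7.64, 8.47 and 8.82 FPKM in siPOU2F1. Its log2 fold change was 0.06 (95% interval -0.22 to 0.34; limma adjusted p = 0.804). MBD3 (ENSG00000071655; chromosome 19, 1573596 to 1592801, minus strand), its alternative in the complex, measured 23.2, 23.8 and 17.9 FPKM in sicontrol. In siPOU2F1 it measured 13.7, 15.4 and 30.0 FPKM. The knockdown libraries thus held both the lowest values and the highest one, and MBD3 had a log2 fold change of -0.21 (95% interval -0.89 to 0.48; limma adjusted p = 0.707). Without siPOU2F1 replicate 3 the log2 fold change of MBD3 was -0.55 and passed (limma adjusted p = 0.0400), as did 25.3% of all genes tested. Without siPOU2F1 replicate 1 the log2 fold change of MBD3 was 0.0039. The log2 ratio of MBD2 to MBD3 overlapped between groups (exact two-sided permutation test, p = 0.5, adjusted 0.6). AC005943.1, a model that shares 12.6% of MBD3 exonic bases on the same strand, was listed at 0 in both groups.

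RBBP4 (ENSG00000162521; chromosome 1, 32651142 to 32686211, plus strand), which binds histones H3 and H4, measured 18.9, 30.3 and 21.6 FPKM in sicontrol and 26.2, 24.6 and 27.7 FPKM in siPOU2F1. The siPOU2F1 values lay inside the sicontrol range, and the log2 fold change was 0.17 (95% interval -0.25 to 0.60; limma adjusted p = 0.601). Leaving out sicontrol replicate 1 gave 0.03 (limma adjusted p = 0.943), and leaving out sicontrol replicate 2 gave 0.36 (limma adjusted p = 0.403). RBBP4 has 6 named pseudogenes in GENCODE, and SYNC shares 21.3% of its exonic bases on the opposite strand with means of 0.668 and 0.460 FPKM, so its values are uncertain to that extent. RBBP7, its close paralogue, measured 149, 146 and 163 FPKM in sicontrol and 166, 163 and 144 FPKM in siPOU2F1 (log2 fold change 0.05, limma adjusted p = 0.805). TXLNG overlaps 6.57% of its exonic bases on the opposite strand, at 23.4 and 17.2 FPKM. RBBP7 held 86.6% ± 3.32 of the FPKM of both genes in sicontrol and 85.7% ± 1.62 in siPOU2F1 (exact two-sided permutation test of the log2 ratio, p = 0.6, adjusted 0.6).

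The remaining NuRD subunits were taken from a list of 5, of which 4 were tested and 0 were called (limma; 0 at an unadjusted p under 0.05). RBBP7, given above, is among them. GATAD2A, which bridges the MBD and CHD subunits, measured 17.5, 19.6 and 18.0 FPKM in sicontrol and 14.6, 14.5 and 19.9 FPKM in siPOU2F1 (log2 fold change -0.17, limma adjusted p = 0.532). GATAD2B, its paralogue, ranged from 2.52 to 2.96 FPKM in sicontrol and from 2.27 to 2.49 FPKM in siPOU2F1, without overlap but with a log2 fold change of -0.19 (limma adjusted p = 0.474). CDK2AP1, a small subunit, ranged from 40.6 to 51.2 and from 38.0 to 53.9 FPKM (-0.05, limma adjusted p = 0.881). CHD5, the motor known from neurons, was at most 0.198 FPKM in any library and was below the level tested.

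**Figure D3:**
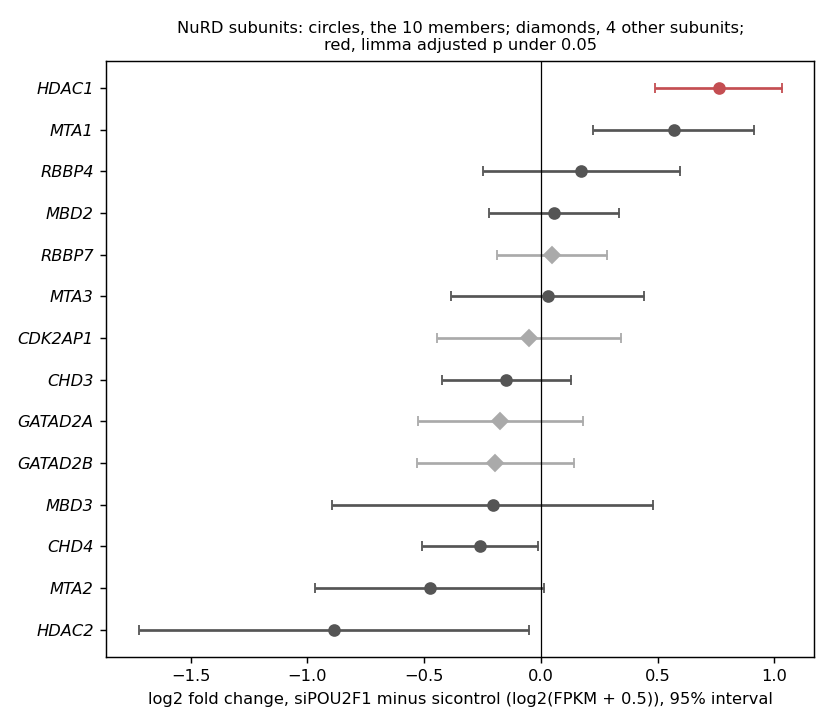
Log2 fold changes of the 10 NuRD members (circles) and 4 other subunits (diamonds), as siPOU2F1 minus sicontrol on the log2(FPKM + 0.5) scale, with 95% intervals from limma. HDAC1 at 0.76 is the 1 gene in red, called at an adjusted p under 0.05, and HDAC2 at -0.89 has the widest interval.

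Other complexes that hold HDAC1, HDAC2, RBBP4 or relatives of the NuRD subunits were examined for the same comparison, and 0 of their tested genes were called (limma; the counts at an unadjusted p under 0.05 are given for each list). In the SIN3 complex, the other large HDAC1 and HDAC2 assembly, 14 of 14 genes were tested with a median log2 fold change of -0.05, and 1 higher and 1 lower reached an unadjusted p under 0.05. SAP30L, a SIN3 subunit, had the lowest p of that list, with means of 5.86 ± 0.900 and 8.27 ± 0.454 FPKM (0.47, limma adjusted p = 0.163). In the CoREST complex, which pairs the deacetylases with the demethylase KDM1A, the median over 10 genes was 0.25, with 7 positive, and 2 lower reached an unadjusted p under 0.05. RCOR1, the CoREST scaffold, measured 18.9, 20.1 and 17.1 FPKM in sicontrol and 11.9, 12.4 and 13.2 FPKM in siPOU2F1 (-0.56, limma adjusted p = 0.0718). In the list of mitotic deacetylase complex and MIER genes the median over 6 was -0.05. MIER3, a deacetylase-binding protein related to the MTA scaffolds, measured 8.22, 7.96 and 7.11 FPKM in sicontrol and 4.21, 4.22 and 4.98 FPKM in siPOU2F1 (-0.73, limma adjusted p = 0.0576), and it was the 1 of the 6 with an unadjusted p under 0.05. Both RCOR1 and MIER3 were lower in all 3 siPOU2F1 libraries than in any control. Both passed without siPOU2F1 replicate 3 (limma adjusted p = 0.0151 and 0.00957), as did 25.3% of all genes tested in that fit.

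Among 16 NuRD partners 13 were tested, with a median of 0.19, 10 positive, and 1 lower at an unadjusted p under 0.05. That was ZNF687, a zinc finger partner of ZMYND8, with means of 7.14 ± 0.678 and 4.40 ± 0.643 FPKM (-0.65, limma adjusted p = 0.104). The NCoR complex, built on HDAC3 in place of HDAC1 and HDAC2, had a median of 0.03 over 6 genes, of which 0 reached an unadjusted p under 0.05, and HDAC3 had the lowest p (0.26, limma adjusted p = 0.294). Of the 9 other deacetylases 7 were positive with a median of 0.22, and 0 reached an unadjusted p under 0.05. HDAC5, a class IIa deacetylase, measured 5.33, 3.79 and 6.65 FPKM in sicontrol and 13.3, 14.5 and 5.09 FPKM in siPOU2F1. Its 2 high libraries were siPOU2F1 replicates 1 and 2, and its log2 fold change was 0.90 (limma adjusted p = 0.288). It was 0.64 without siPOU2F1 replicate 2 (limma adjusted p = 0.668). Without siPOU2F1 replicate 3 it was 1.35 and passed (limma adjusted p = 0.0105), as did 25.3% of all genes tested in that fit. Of the 6 other CHD remodellers 5 were negative (median -0.06, 0 with an unadjusted p under 0.05), and CHD1 had the lowest p (-0.33, limma adjusted p = 0.322).

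The genes of DNA methylation had a median of 0.02 over 12, and 1 higher and 1 lower reached an unadjusted p under 0.05. UHRF1, which recognises hemimethylated DNA, had means of 13.9 ± 2.66 and 9.33 ± 2.32 FPKM (-0.56, limma adjusted p = 0.240). Polycomb complex 2 and the histone chaperone CAF-1, which share RBBP4 with NuRD, had a median of 0.13 over 11, with 2 higher and 2 lower at an unadjusted p under 0.05. MTF2, a Polycomb accessory subunit, ranged from 10.3 to 11.8 FPKM in sicontrol and from 7.55 to 8.70 FPKM in siPOU2F1 (-0.40, limma adjusted p = 0.163). The SWI/SNF remodellers had a median of -0.00064 over 22 genes, of which 11 were positive, with 2 higher and 1 lower at an unadjusted p under 0.05. ACTL6A, an actin-related subunit, measured 99.7, 97.8 and 97.8 FPKM in sicontrol and 63.4, 59.1 and 77.1 FPKM in siPOU2F1 (-0.57, limma adjusted p = 0.0754). All 3 of its siPOU2F1 values were below the controls. Without siPOU2F1 replicate 3, the named related genes ACTL6A, ZNF687, CHD1, KDM1A, UHRF1 and SAP30L also passed, as did 25.3% of all genes tested. Their limma adjusted p were 0.00706, 0.0232, 0.0280, 0.0307, 0.0365 and 0.0463, with log2 fold changes of -0.68, -0.70, -0.49, 0.57, -0.73 and 0.51. With all libraries the log2 fold change of KDM1A was 0.40 (limma adjusted p = 0.298). HDAC3, MTF2 and ZMYND8 did not pass without siPOU2F1 replicate 3 (limma adjusted p = 0.0687, 0.0666 and 0.167).

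**Figure D4:**
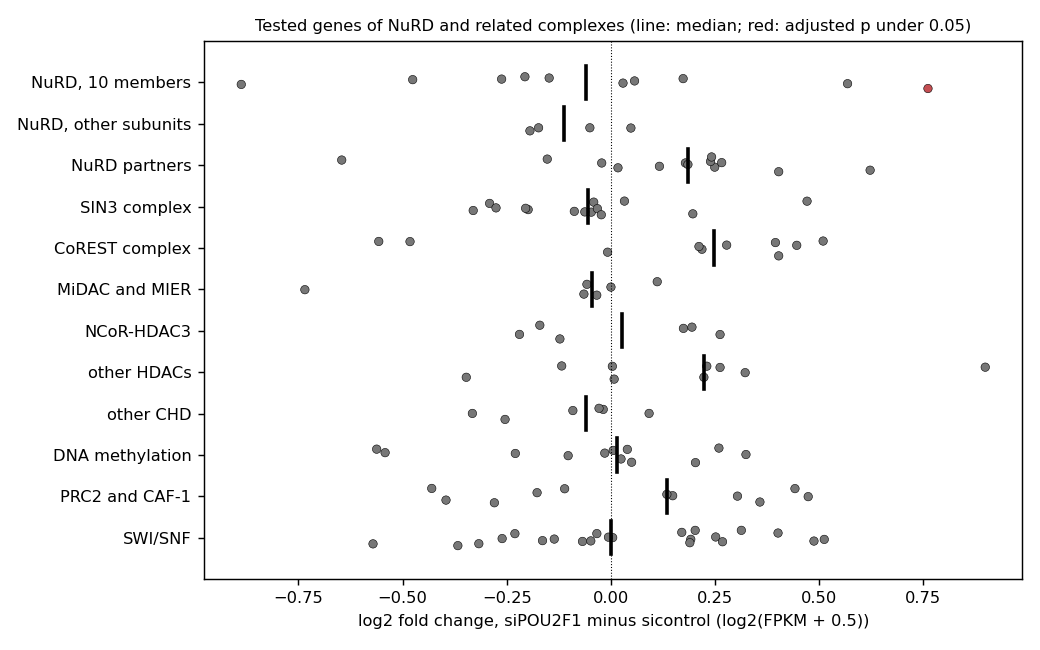
Log2 fold change of each tested gene in NuRD and 11 related gene lists, as siPOU2F1 minus sicontrol on the log2(FPKM + 0.5) scale, with a vertical line at each list's median (points are spread vertically for visibility). HDAC1, in red, is the 1 called gene, and the list medians lie between -0.11 and 0.25.

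The 7-base word AACTGCA, which an earlier analysis of these libraries linked to lower genes, was looked up in the 3′ UTRs of the NuRD genes. Since the word was picked from these same fold changes, its presence is a description and supports nothing. Of the 9 members with a 3′ UTR of at least 20 bases in the GENCODE transcript used, HDAC2 was the 1 that held it, where 11.9% of 11487 tested genes did. Among the other subunits GATAD2B held 1 copy, and POU2F1 held 2. The sites are shown with 10 bases on each side, 5′ to 3′, on the minus strand of GRCh38, with the word in capitals.

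HDAC2, chr6:113933143-113933149: tttgaaagcaAACTGCAaagttttgat
GATAD2B, chr1:153808437-153808443: cacacacatgAACTGCAcaccttcccc

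The HDAC2 site lies at base 7909 of a 3′ UTR of 8030 bases, near its far end. This 3′ UTR is the longest among the members, and the share over all tested genes is not matched for length. Neither HDAC2 nor GATAD2B was called, with the values given above. The members CHD3, CHD4, MTA2 and MBD3, whose means were also lower in siPOU2F1, held 0 copies, and so did HDAC1 and MTA1.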

How the data were processed

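PolyA RNA of 6 HCT116 libraries was sequenced from 2 µg of total RNA, with 3 sicontrol and 3 siPOU2F1 libraries grouped by their titles. For each library the authors deposited FPKM values per gene. StringTie 2.1.2, HISAT2 2.0.4 and Bowtie2 2.2.5 are named, with hg38 but without their roles, per the submitters' processing notes. The annotation release, like the strand setting, is not given in the sources used here. Of 22782 rows, 20474 annotated genes were used and 2308 assembled transcripts were left out. The 11831 genes averaging 1 FPKM or more were compared as log2(FPKM + 0.5) with limma 3.58.1 (R 4.3.3), with a mean-variance trend and no covariate. P-values were adjusted by Benjamini-Hochberg over all of them and called under 0.05. The pseudocount makes fold changes of low genes too small.

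Paralogue log2 ratios used exact two-sided permutation tests (scipy 1.17.1). Relative depth is the commonest step between libraries among genes from 0.005 to 0.05 FPKM (held by 10 to 20 of 340 to 447 genes each). Absolute depth is unknown. Promoters came from RefSeq (GRCh38.p14), and positions, overlaps and 3′ UTRs from GENCODE release 29, with the transcript of longest coding sequence standing for each gene. The members and lists were chosen with earlier results of these data known. Named genes are POU2F1, the members, the 5 other subunits and, from each related list, its called genes or else the 1 with the lowest p. Beside these stand up to 3 genes whose pattern is most like that of the called member, from genes averaging 5 FPKM or more. EML3, SYNC, TXLNG, AL928654.2, AC006064.6, AC005943.1, KDM1A, ZMYND8 and marker genes were named after their values were seen, and sums and shares were added then. Alternatives were other pseudocounts, filters, scalings, library weights, a replicate block and leaving out each library. The fit was tested on simulated data.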

Additional observations from a re-analysis of the deposited data

How the results depend on the processing

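HDAC1 kept its direction under every alternative run, with log2 fold changes from 0.67 to 0.86, and was called with pseudocounts of 0.1 and 1, a filter at 5 FPKM, median scaling, quantile normalization, library weights and without siPOU2F1 replicate 3. Without a filter on low values 24 genes were higher and 48 lower, and 0 members were called (limma; 2597 genes and 3 members at an unadjusted p under 0.05). Library weights gave siPOU2F1 replicate 3 a weight of 0.145 and siPOU2F1 replicate 2 one of 3.82. Of 11831 tested genes, 2651 were then higher and 3312 lower (limma). In that fit 2 members were higher (HDAC1 and MTA1) and 3 lower (HDAC2, MBD3 and MTA2), a count to be read against that share of all genes. With a replicate block 0 genes were higher and 0 lower, 0 members were called and HDAC1 had an adjusted p of 0.297 (limma; 1208 genes and 2 members at an unadjusted p under 0.05). By their deviations from the group means, libraries of the same number correlated at r = 0.133, -0.545 and -0.512 for numbers 1 to 3. Libraries of unlike numbers correlated at r from -0.511 to 0.643. Whether the numbers pair the libraries was not tested.

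Leaving out 1 library at a time gave 0 to 1120 genes higher, 0 to 1870 lower, 0 to 2 members higher and 0 to 2 lower. The highest counts came without siPOU2F1 replicate 3, where HDAC1 and MTA1 were higher and MBD3 and MTA2 lower. That fit called 25.3% of all genes it tested. The other 5 fits called 0 members, where over all tested genes they called only 0 to 4 higher and 0 to 5 lower. In each of these fits 2 to 3 members had an unadjusted p under 0.05 (limma; 1179 to 2043 of all tested genes). The log2 fold changes ran from -0.10 to 0.19 for MTA3, from -0.55 to 0.0039 for MBD3 and from -0.21 to 0.048 for CDK2AP1, and so crossed 0. The difference in the log2 ratio of RBBP7 to RBBP4 ran from -0.35 to 0.0025. POU2F1 ran from -1.06 to -0.95 and had adjusted p from 0.00946 to 0.222 (limma), with its call kept, among these fits, only without siPOU2F1 replicate 3. It was also lost without a filter on low values (limma adjusted p = 0.0650) and with the replicate block (0.297). The other 5 ratios kept their direction throughout.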

Other observations

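The genes whose log2 values followed HDAC1 most closely over the 6 libraries, among 8694 with a mean of at least 5 FPKM, were VPS51 (Pearson r = 0.9969), PRDX4 (0.9963) and FAM32A (0.9956). VPS51 belongs to a tethering complex of the trans-Golgi network, PRDX4 is a peroxiredoxin of the endoplasmic reticulum, and FAM32A is a small nuclear protein. PRDX4 measured 26.5, 33.6 and 38.1 FPKM in sicontrol and 65.0, 70.1 and 80.1 FPKM in siPOU2F1. FAM32A measured 18.2, 20.9 and 20.9 FPKM and then 31.6, 32.7 and 35.0 FPKM. VPS51 covered a much narrower range, from 24.7 to 28.7 FPKM over all libraries. All 3 share with HDAC1 a lowest value in sicontrol replicate 1 and siPOU2F1 values above all controls. They were picked as the closest of many genes over few libraries, so the correlations are a description.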
